A study of Drosophila melanogaster with 2 samples.

Results

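Of the 3869 regions at which GFP-tagged CG11723 was recovered reproducibly from Drosophila melanogaster embryos, 573 had their summit inside an intron, 501 to 2000 bp from the nearest transcription start site (TSS). These near-intron regions were chosen by position alone: the summit, the base of highest signal that the authors gave for each region, had to lie inside an annotated transcript and in no exon. The distance was measured to the nearest TSS of any gene in the Ensembl annotation BDGP6. Their signal did not enter the choice, beyond the signal that placed a region on the list. Each listed summit counts as a region: the 573 have 570 distinct intervals, because 3 intervals, in CG9663, CG1677 and tou, hold 2 of these summits each. Intronic regions more than 2000 bp from a TSS (737, called deep-intron regions here) and regions within 500 bp of a TSS (1951, called promoter regions) serve as the closest comparisons.

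Both samples were whole embryos of mixed sex, 0 to 16 hours old, of 1 transgenic line that stably carries CG11723 with GFP fused to its C-terminus. The chromatin was sonicated to 200 to 800 bp, pulled down with an antibody against GFP and sequenced (ChIP-seq). The 2 biological replicates, numbered 1 and 3, form 1 group, and no embryos without the fusion protein were analysed here. Which promoter drives the fusion gene is not stated in the labels. The list of 3869 regions is the IDR list, which the authors thresholded on how reproducibly regions ranked in both replicates, and it equals the 3869 regions of highest signal in a list of 30000 called on the pooled replicates. Depth is unknown from these files, the embryo holds many cell types, and regions are not biological replicates: every p below compares classes of regions within this 1 experiment.

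The first intron of a fly gene is often long, and together with the DNA around the start site it commonly holds enhancers, insulators and additional start sites of the same gene. A protein recovered there may contact the DNA itself or be held there by other proteins, and cross-linking does not tell these apart. CG11723 is an uncharacterized gene, so its preferred DNA sequence is not background knowledge. Its own locus, 2L:2145297-2147275 on the minus strand of dm6, overlapped 0 regions of the IDR list.

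The sequences below reach 50 bp to either side of a summit, from the plus strand of the RefSeq Release 6 genome (dm6), written 5′ to 3′ and named by the gene whose intron holds the summit. The first set shows 5 of the 6 strongest near-intron regions, at the genes CG11050, ush, CG32772, Trl and CG9663, because most of their bases are A or T. No letter is capitalized in them. Their GC content was 20.8%, 27.7%, 27.7%, 32.7% and 33.7% in that order, against a mean of 41.5% in windows 500 bp away from all 573 summits.
CG11050 (2L:6612663-6612763): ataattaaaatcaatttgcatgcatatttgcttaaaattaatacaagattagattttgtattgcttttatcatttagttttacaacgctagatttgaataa
ush (2L:481016-481116): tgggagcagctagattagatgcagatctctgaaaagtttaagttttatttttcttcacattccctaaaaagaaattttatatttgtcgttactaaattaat
CG32772 (X:4910326-4910426): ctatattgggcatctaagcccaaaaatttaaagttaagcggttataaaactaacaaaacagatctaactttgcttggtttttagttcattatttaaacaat
Trl (3L:14759467-14759567): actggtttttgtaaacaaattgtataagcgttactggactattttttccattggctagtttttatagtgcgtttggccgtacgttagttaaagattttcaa
CG9663 (2L:3302133-3302233): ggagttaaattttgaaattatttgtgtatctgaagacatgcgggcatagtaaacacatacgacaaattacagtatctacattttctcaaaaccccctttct

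The next set shows the sequence that set the near-intron regions apart from promoter regions by being rare. Capitals mark ATCGATA or its reverse complement TATCGAT, which lies within the DRE, the 8 bp palindrome TATCGATA bound by the factor Dref. Stt3A and Kif3C carried the 2 complete DREs found among the 573 windows, and for carried the 7 bp word in the strongest region that had it.
Stt3A (X:21053236-21053336): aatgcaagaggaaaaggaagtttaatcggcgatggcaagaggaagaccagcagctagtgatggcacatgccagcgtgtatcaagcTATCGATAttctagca
Kif3C (4:1148132-1148232): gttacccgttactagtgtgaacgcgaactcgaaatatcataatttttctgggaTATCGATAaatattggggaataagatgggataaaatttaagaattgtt
for (2L:3655758-3655858): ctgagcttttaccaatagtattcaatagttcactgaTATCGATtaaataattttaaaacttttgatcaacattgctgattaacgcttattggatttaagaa

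GCAAACA, or its reverse complement TGTTTGC, was the 7 bp word found more often at near-intron than at promoter summits. It is capitalized in 3 of its strongest carriers.
cno (3R:5215473-5215573): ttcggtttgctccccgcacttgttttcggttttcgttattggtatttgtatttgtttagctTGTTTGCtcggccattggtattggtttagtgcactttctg
SREBP (3L:19794449-19794549): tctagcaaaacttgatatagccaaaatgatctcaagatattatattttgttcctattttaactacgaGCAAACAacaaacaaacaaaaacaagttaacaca
CHES-1-like (X:7698385-7698485): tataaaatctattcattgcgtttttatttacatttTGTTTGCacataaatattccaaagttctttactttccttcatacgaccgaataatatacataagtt

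CACTGTA was more frequent at near-intron summits than in flanking DNA. It is capitalized, in the orientation on the plus strand, in 2 carriers.
Lk6 (3R:11760999-11761099): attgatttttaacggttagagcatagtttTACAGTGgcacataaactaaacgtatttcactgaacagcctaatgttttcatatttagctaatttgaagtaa
Btk (2L:8292527-8292627): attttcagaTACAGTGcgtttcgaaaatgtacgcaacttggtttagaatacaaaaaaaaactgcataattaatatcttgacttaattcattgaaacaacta

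A TATA box, TATAAAAG or CTTTTATA, is capitalized in 2 of the 11 windows that held one. The carriers printed in these last 4 sets, and other genes named for a sequence, were chosen after their values were seen.
Baldspot (3L:16660580-16660680): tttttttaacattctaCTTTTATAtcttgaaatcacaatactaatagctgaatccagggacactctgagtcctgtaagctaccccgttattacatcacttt
ph-p (X:2135301-2135401): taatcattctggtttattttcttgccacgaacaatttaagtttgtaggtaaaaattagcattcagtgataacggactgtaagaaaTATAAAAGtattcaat

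The signal of the 573 regions, on the authors' scale, ran from 88.8 to 1646, with a median of 143 and quartiles of 109 and 214. The strongest one, also the strongest of the whole IDR list, lay at 2L:6612389-6612980 in CG11050. Its signal was 1646 in the pooled list, 892 in replicate 1 and 746 in replicate 3, where it ranked 1 and 4. The summit sat in a 140 bp intron, the second of its transcript and 1026 bp downstream of the TSS, so the region of 592 bp was wider than the intron. It was 1 of 8 near-intron regions wider than the shortest intron around their summit.

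The next strongest region lay in the first intron of ush, which encodes a zinc finger cofactor of GATA factors, and 1378 bp upstream of the TSS of cbt, a gene for another zinc finger factor. Its signal was 1492 pooled, 657 in replicate 1 and 793 in replicate 3. The regions of CG32772 (1138) and Trl (1099), the gene of the GAGA factor, followed. A region of signal 1075 lay in introns of both HmgZ and HmgD, neighbouring genes for HMG-box chromatin proteins, 561 bp upstream of the nearest HmgZ start. CG9663 (991) and Lk6 (955), a kinase that phosphorylates the translation factor eIF4E, completed a group of 7 that ranked among the 20 strongest regions of the IDR list. All 7 ranked 22 or better in each replicate.

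A gap followed, since the eighth region, in the transcription factor gene Adf1, had a signal of 691. Its ranks were 196 in replicate 1 and 27 in replicate 3, so the replicates placed it less evenly than the 7 above it. The region of cno, the fly afadin of cell junctions, was uneven the opposite way, with ranks of 32 and 202 and signals of 454 and 221. The region of for, a cGMP-dependent protein kinase, had a pooled signal of 660, and those of CG31635 and CG3726 had 657 and 631.

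The remainder of the 25 strongest, down to a signal of 489, mixed regulators with genes of metabolism. Among regulators were chif, a Dbf4-like protein of DNA replication (626), wde, a cofactor of an H3K9 methyltransferase (594), NFAT (584), simj, a subunit of the NuRD complex (567), and edl, a modulator of MAPK signalling (504). Among metabolic and signalling genes were LPCAT, an acyltransferase of phospholipids (575), bmm, a triglyceride lipase (521), ImpL2, which binds insulin-like peptides (504), norpA, the phospholipase C of phototransduction (503), and Zw, glucose-6-phosphate dehydrogenase (489). CG4496 (594), CG9837 (582) and Reph (568) were the others. Of these 25 regions, 23 lay in a first intron, 15 were downstream of their nearest TSS, and 13 were among the 100 strongest of the whole list. Their median summit GC content was 29.7%.

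**Figure D1:**
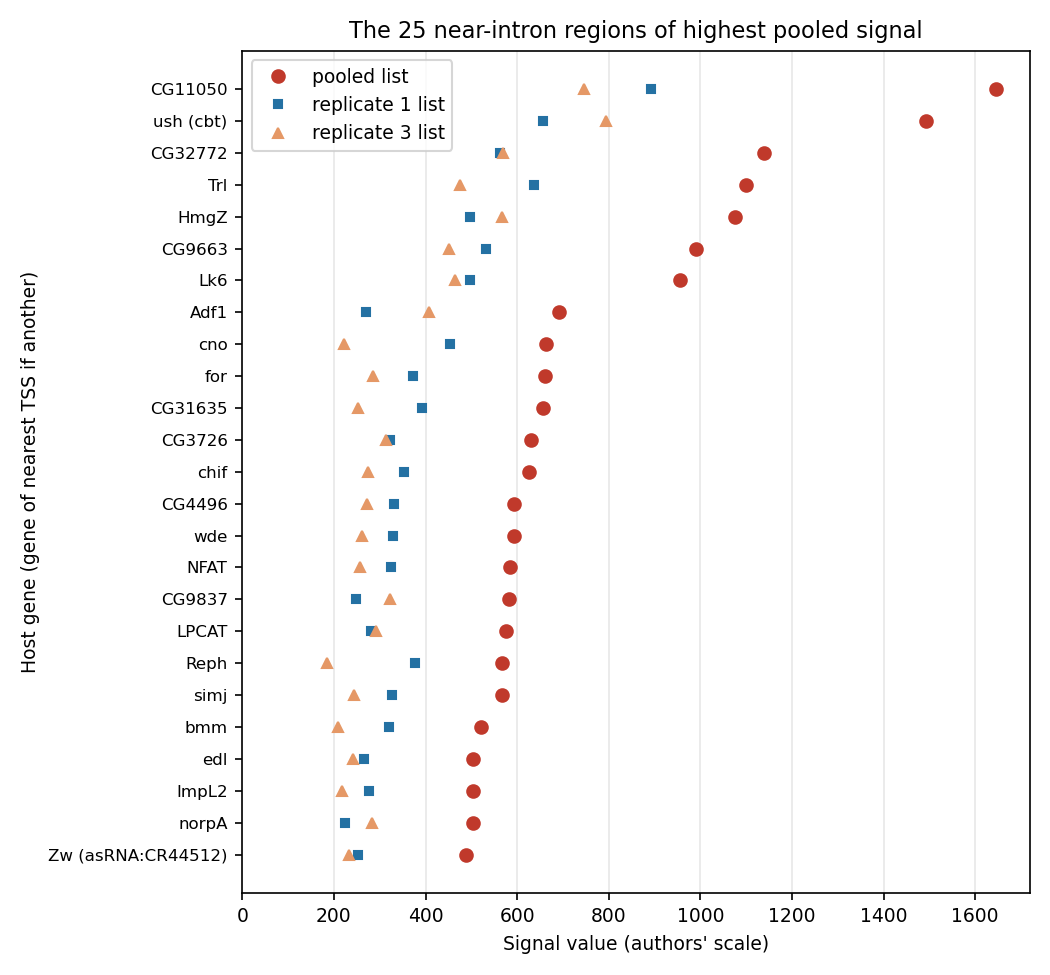
Signal value (authors' scale, x axis) of the 25 near-intron regions of highest pooled signal, by host gene (y axis), with the gene of the nearest TSS in brackets where it differs; circles are the pooled list, squares replicate 1 and triangles replicate 3. The 7 strongest lie at 955 or above in the pooled list, and the next at 691.

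Across all near-intron regions the replicates did not order the signal alike. Replicate 1 had an overlapping region for 561 of the 573, with a median signal of 87.3 (19.8 to 892), and replicate 3 for 554, with a median of 70.7 (11.1 to 793). Spearman's rho between replicates was 0.517 over the 542 regions found in both lists, which is a description of regions that share their libraries. These regions were listed by the pooled signal of the same replicates, which narrows the range of signal. The value is not given here for other classes, so it does not set near-intron regions apart. Neighbouring members sometimes met the same replicate region, which was the case for 42 members in replicate 1 and 48 in replicate 3.

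**Figure D2:**
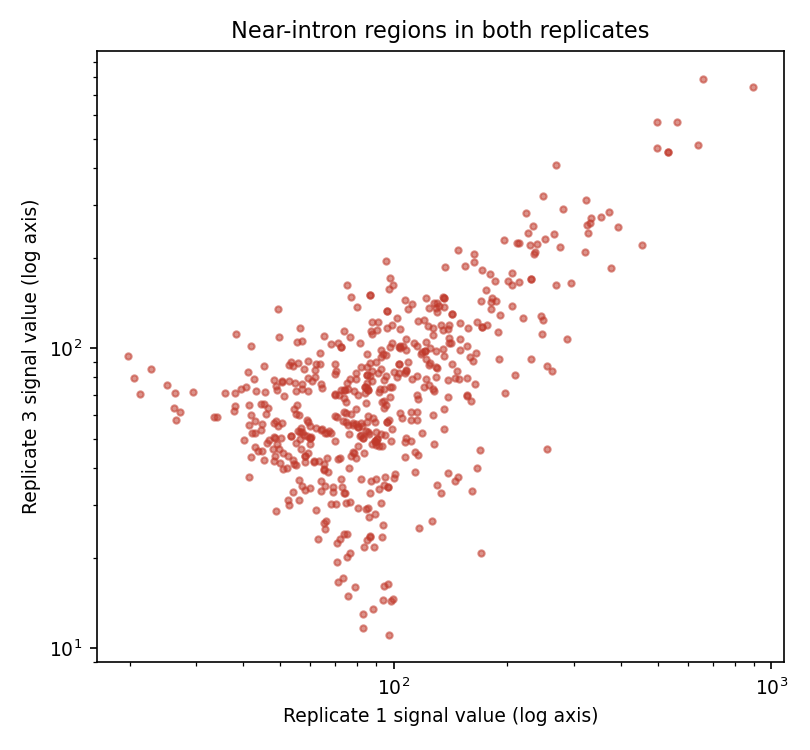
Signal of the 542 near-intron regions present in both replicate lists, replicate 1 on the x axis and replicate 3 on the y axis, both log axes on the authors' scale, 1 point per region. The region of CG11050 is at 892 and 746, and Spearman's rho over all points is 0.517.

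Counting each replicate's 3869 strongest regions as its top, 357 of the 573 (62.3%, 95% exact interval 58.2 to 66.3) overlapped a top region of both, where 59.9% of the whole IDR list did. The top of replicate 1 held 455 (79.4%, against 80% of the whole list) and that of replicate 3 held 462 (80.6%, against 77.6%). Hence 98 (17.1%) were top in replicate 1 alone, 105 (18.3%) in replicate 3 alone and 13 (2.27%) in neither. The share in both was 57.3% for deep-intron regions (odds ratio 1.23, Fisher's exact test, adjusted p = 0.0994). It was 62.0% for promoter regions (odds ratio 1.01, exact adjusted p = 0.922). Neither difference passed the threshold of 0.05. Adjusted p-values of such shares are 2-sided and adjusted by the Benjamini-Hochberg method over the 10 comparisons of shares.

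Pooled-list regions in introns near a start site were in the IDR list more often than those deeper in introns. Of the 3879 near-intron regions in the pooled list, 573 (14.8%, 13.7 to 15.9) were in the IDR list, against 737 of 9422 deep-intron regions (7.82%, 7.29 to 8.38). The odds ratio was 2.04 (Fisher's exact test, adjusted p = 3.06e-31), and over all position classes the share was 12.9%. Within the IDR list the near-intron regions were also the stronger intronic class: 285 (49.7%) exceeded the list's median signal of 144, which 50% of all regions did, against 302 of 737 deep-intron regions (41%; odds ratio 1.43, exact adjusted p = 0.00342). They were weaker than promoter regions, of which 1112 (57.0%) exceeded it (odds ratio 0.747, exact adjusted p = 0.00371). Both signal differences kept their direction but missed the threshold when regions were taken from replicate 1 alone. The odds ratio against deep-intron regions was then 1.31 (exact adjusted p = 0.0509), and that against promoter regions 0.940 (adjusted p = 0.527).

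**Figure D3:**
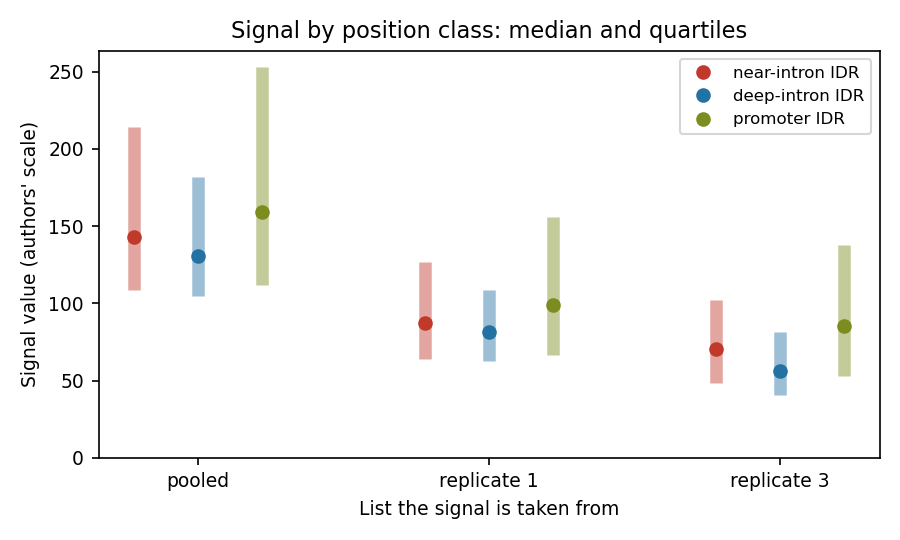
Signal value (authors' scale, y axis) of near-intron (n = 573), deep-intron (n = 737) and promoter (n = 1951) regions of the IDR list in the pooled list and at the overlapping regions of each replicate list (x axis); points are medians and bars run from the lower to the upper quartile over regions. In all 3 lists the near-intron median (143, 87.3 and 70.7) lies above the deep-intron one (131, 81.6 and 56.2) and below the promoter one (159, 99.1 and 85.4), and the quartile ranges overlap.

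Within the distance limits the regions leaned toward the start site. The median distance was 1045 bp (quartiles 717 and 1432), against 1147 bp in the 3155 near-intron regions of lower rank, those ranked below the IDR list in the pooled list and overlapping none of its regions. Between 501 and 1000 bp lay 271 of the 573 (47.3%), against 1246 of the 3155 (39.5%; odds ratio 1.37, Fisher's exact test, adjusted p = 0.00131). With replicate 1 alone this became 1.17 (exact adjusted p = 0.155). With the lower-ranked regions that overlap an IDR region kept, an alternative chosen after seeing the data, 3306 were compared and it was 1.36 (exact adjusted p = 0.00247). The excess sat in the nearest bin, 501 to 750 bp, with 28.4% of the near-intron IDR regions against 19.8% of the lower-ranked ones. From there to 1000 bp the shares were 18.8% and 19.7%. Signal hardly followed distance, with bin medians of 150, 148, 140 and 143 from the nearest to the farthest bin and a Spearman's rho of -0.0611 over the 573 regions.

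The limits themselves cut through regions of ordinary strength. Just inside 501 bp were regions of jar, myosin VI, at 501 bp (signal 270) and of CG5854 at 502 bp (159). Just outside it were CG3638 and CG31038, both at 495 bp (183 and 107). At the far limit, a region in lncRNA:CR44320 near CG12290 (1997 bp, 211) and that of Irk1, a potassium channel gene (1994 bp, 106), were inside. Those of Tsp96F (2012 bp, 147) and of hiw nearest to be (2017 bp, 157) were outside.

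Most of the near-intron regions lay in the first intron of a transcript, 481 of 573 (83.9%, 80.7 to 86.9), more often than the lower-ranked ones (77.3%; odds ratio 1.54, Fisher's exact test, adjusted p = 9.13e-04). Median signal was 143 both in first introns and in later ones. The introns had a median length of 5191 bp, against 5730 bp for the lower-ranked and 13448 bp for the deep-intron regions. The nearest TSS belonged to the gene whose intron held the summit in 494 cases (86.2%, against 77.1% of lower-ranked regions). In 343 the summit was downstream of that start, and in 151 (26.4%) it was upstream of an alternative start of the same gene. A further 62 lay upstream and 17 downstream of another gene's TSS. Coding genes owned 522 of the nearest starts, ncRNA genes 45, snoRNA genes 3 and tRNA genes 3.

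The share of downstream summits did not pass the test against lower-ranked regions (360 of 573, 62.8%, against 64.4%; odds ratio 0.935, exact adjusted p = 0.531). The nearest TSS itself carried an IDR summit within 500 bp in 138 cases (24.1%, 20.6 to 27.8), against 17.2% of lower-ranked near-intron regions (odds ratio 1.53, exact adjusted p = 8.10e-04). The remaining 435 near-intron regions lay near a start with no listed summit. With replicate 1 alone the odds ratio was 1.20 (exact adjusted p = 0.155). Because lower-ranked regions overlapping an IDR region had been left out, the comparison was repeated with them, and the lower-ranked share was then 18.1% (odds ratio 1.44, exact adjusted p = 0.00247). Median signal was 160 where the start was occupied and 141 where it was not. Windows that the reference soft-masks as repeats over at least 50% of their length numbered 52 (9.08%), and the difference from the 7.45% of lower-ranked windows did not pass (odds ratio 1.24, exact adjusted p = 0.217).

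The regions were spread over all arms, with 82 on 2L, 105 on 2R, 111 on 3L, 143 on 3R, 7 on 4 and 125 on X. The X held 21.8% of them and 17.9% of the lower-ranked near-intron regions, and 3R held 25% and 20.8%, shares given as a description without a test.

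The 573 regions fell in 503 host genes, of which 482 were coding, and 415 genes held a single region. As a base rate, 26.6% of the 1811 coding genes that host any near-intron region of the pooled list hosted one of the IDR list. Genes were grouped by lists of known functions and counted against that rate, and against the 14.8% of pooled near-intron regions that were in the IDR list, because genes with more pooled regions have more chances to be counted. All near-intron hosts had 2.23 pooled near-intron regions per gene. These counts are descriptions and were not tested. The lists were chosen with earlier results of these data known, so a count above a base rate is not independent support. The lists are partial. Adf1, NFAT, for, cno, wde, simj and tou, whose functions are named elsewhere in the text, are on none of them. Counts and rankings below therefore hold among the listed genes only.

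Zinc finger transcription factors hosted near-intron IDR regions in 16 of 30 genes (53.3%), at 3.27 pooled regions per gene, and 28 of their 98 pooled regions (28.6%) were in the IDR list. After ush and Trl the strongest listed one belonged to lola (317), a BTB factor with many isoforms. Chromatin proteins did so in 12 of 22 genes (54.5%), at 3.09 pooled regions per gene, with 17 of 68 regions (25%). The strongest among the listed ones, which do not include wde, simj or tou, were Trl, which both lists hold, the shared region of HmgD and HmgZ, and ph-p, a Polycomb subunit (258). Both groups were above both base rates, as lists chosen with earlier results of these data known.

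Protein kinases hosted them in 22 of 44 genes (50%), at 3.43 pooled regions per gene, and 29 of 151 pooled regions (19.2%) were in the IDR list. Among the listed kinases, which do not include for, Lk6 was followed by fray, a kinase that regulates ion cotransport (449), and InR, the insulin receptor (441). Other transcription factors did so in 10 of 29 genes (34.5%, and 19.2% of regions). Among those listed the strongest were the forkhead gene CHES-1-like (446), SREBP, a regulator of lipid synthesis (361), and Dif, an NF-kappaB factor of immunity (243). Signalling pathway genes did so in 12 of 36 (33.3%; 16.2% of regions), with Mad, the transducer of Dpp signals (251), shn, its zinc finger partner (234), and neur, a ubiquitin ligase of the Notch pathway (200).

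For several groups the gene count stood above the base rate while the share of regions was close to or below its own base rate. Nuclear receptor and ecdysone response genes reached 6 of 16 genes (37.5%) but 14.5% of regions, with ImpL2 (504), the ecdysone receptor gene EcR (189) and the nuclear receptor gene Hr4 (143). RNA-binding regulators reached 10 of 26 (38.5%) and 14.9%, with the translational repressor brat (369), the neuronal protein gene elav (272) and the splicing factor gene ps (214). Cytoskeleton and adhesion genes reached 11 of 36 (30.6%) and 12.2%, led among those listed by Moe, the fly moesin (357), Dhc64C, the dynein heavy chain (319), and jar. Neural development genes reached 6 of 19 (31.6%) and 12%, with brat and elav again and NetB, a netrin (256).

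Hox, gap and pair-rule genes had 1 of 8 genes (12.5%), namely Abd-B (134), and 1 of 20 regions (5%). These counts are too small to compare with the base rates. Ribosomal protein genes offered almost nothing to count. None of the cytoplasmic ones hosted a near-intron region of the pooled list, and of the mitochondrial ones 1 did, outside the IDR list. Of the heat shock and chaperone genes 2 could be counted and 1 was called, Hsp83 (265).

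Several genes held clusters, 19 of them with 3 or more near-intron regions. The largest was on X, where 9 summits in 8 distinct intervals lay in introns shared by CG1677 and lncRNA:CR44357, with signals from 115 to 378. The nearest starts were those of other genes: Dok, a docking protein of kinase signalling, CBP, brk, the repressor of Dpp target genes, unc-119 and CG42780. The brk start alone was the nearest for 3 of them (269, 221 and 122), of which the first 2 share an interval.

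Most other clusters were near starts of the host itself. Each of Acsl, CG10543, CG42258, NFAT, Svil, Tlk, shn and tou had 4, and in 4 of these genes (CG42258, NFAT, shn and tou) some overlapped, leaving 3 separate blocks. In NFAT they ranged from 93.0 to 584. In Acsl, a long-chain acyl-CoA synthetase gene, they ranged from 96.0 to 239, and in tou, a chromatin remodelling gene, from 98.0 to 243 with both extremes in 1 interval. In Svil, the supervillin gene, the 4 were all weak (95.2 to 127). Genes with 3 summits were Btk, CHES-1-like, Dys, EcR, HmgZ, Tpr2, Trl, milt and psq. In CHES-1-like all 3 were strong (446, 354 and 342), whereas in Trl 1 dominated (1099, 244 and 113).

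The DNA under the summits was A/T-rich in a narrow window. Mean GC content within 50 bp of near-intron summits was 34.8% (SE 0.354 over regions), against 41.5% (SE 0.407) and 41.4% (SE 0.445) in the windows 500 bp to either side. The mean difference to the flank on the side of lower coordinates was -6.67 percentage points (SE 0.559). Lower-ranked near-intron summits differed from their flank by -0.609 points (SE 0.243). The difference was -6.73 points (SE 0.467) at deep-intron summits and -6.56 points (SE 0.359) at promoter summits. Stronger regions had lower GC content, with a Spearman's rho of -0.231 between signal and summit GC content over the 573 regions. The dip was -8.58 points at the summits of replicate 3 and -4.31 at those of replicate 1.

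**Figure D4:**
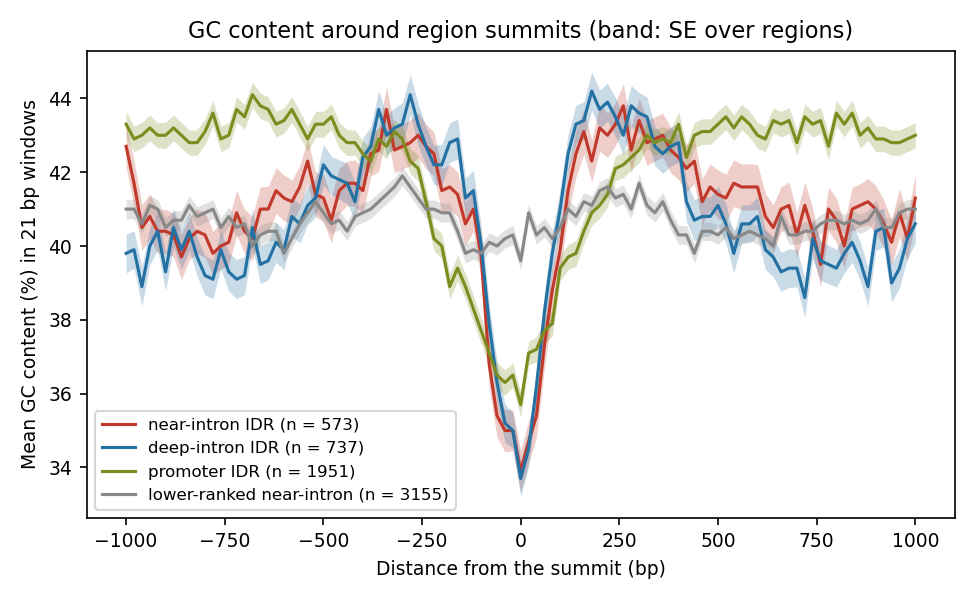
Mean GC content in 21 bp windows placed every 20 bp (y axis, percent) against distance from the summit in bp (x axis) for near-intron, deep-intron and promoter IDR regions and lower-ranked near-intron regions; bands are the SE over regions. The near-intron curve reaches 33.9% at the summit and 43.2% at 200 bp, the deep-intron curve runs beside it, and the lower-ranked curve is nearly flat (39.6% at the summit).

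A/T-rich motifs were the ones found more often at summits. The motif tests did not adjust for base composition. Mean GC content was 34.8% at near-intron summits, 41.5% in their flanks and 40.2% at lower-ranked near-intron summits. Whether this difference accounts for the motif shares was not tested. Of 21 motifs searched on both strands, 2 (9.52%) were more frequent at near-intron summits than in the flank of the same region and 1 (4.76%) less frequent (exact McNemar test, Benjamini-Hochberg over the motifs). Runs of 15 letters that are all A or T were in 81 summits (14.1%) and 46 flanks (8.03%; exact adjusted p = 0.0180). The TATA box occurred in 11 summits and 0 flanks, which by the limit of 3 counts allow a share of up to 0.524% (exact adjusted p = 0.0180). The E-box CACGTG occurred in 1 summit and 12 flanks (exact adjusted p = 0.0239). The repeat GAGAGAG, the site of the GAGA factor, was in 10 summits and 26 flanks (exact adjusted p = 0.0527) and so missed the threshold. It passed as lower at summits in 5 of the 11 alternatives, with exact adjusted p of 0.0190 to 0.0428. From replicate 3 alone 8 motifs passed and from replicate 1 alone 0, with exact adjusted p = 0.203 for the A/T run and 0.672 for the TATA box. Against the flank on the opposite side these were 0.137 and 0.164, and 0.137 for the E-box, so none of the 3 passed there. The E-box also missed the threshold with either narrower distance limit, in the stronger part of the list, from replicate 1 alone and in shorter and longer windows, with exact adjusted p of 0.137 to 0.984.

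Against lower-ranked near-intron summits 1 motif (4.76% of those tested) passed, the A/T run with 14.1% against 9.16% (odds ratio 1.63, Fisher's exact test, adjusted p = 0.00948). The TATA box (1.92% against 0.666%, exact adjusted p = 0.0586) did not. Between near-intron and deep-intron summits 0 of the 21 motifs differed by Fisher's exact test, and 0 had an unadjusted p under 0.05.

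The difference from promoters was in the DRE. The core TCGATA was in 17 near-intron windows (2.97%, 1.74 to 4.71) and in 176 of 1951 promoter windows (9.02%; odds ratio 0.308, exact adjusted p = 2.55e-06). The complete palindrome TATCGATA was in 2 (0.349%) against 61 (3.13%; odds ratio 0.109, exact adjusted p = 1.64e-04). The overlapping word CTATCGA was in 2 against 83 (4.25%; odds ratio 0.0788, exact adjusted p = 2.31e-06). These were the 3 motifs that passed, all lower (14.3% of the 21), and because they share letters they are not separate findings. The core's share was 3.32% in the flanks of near-intron regions, 3.53% at deep-intron summits and 4.12% at lower-ranked near-intron summits, and none of these differences passed. It stayed lower than at promoters from replicate 1 alone (2.78% against 6.89%) and from replicate 3 alone (3.99% against 9.17%). The contrast was not limited to the IDR list. Among lower-ranked regions CTATCGA was in 0.983% of near-intron and 2.52% of promoter summits, and ATCGATA in 1.39% and 3.86%, given without a test. A match is a string of letters, and whether Dref or CG11723 occupies it was not tested.

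**Figure D5:**
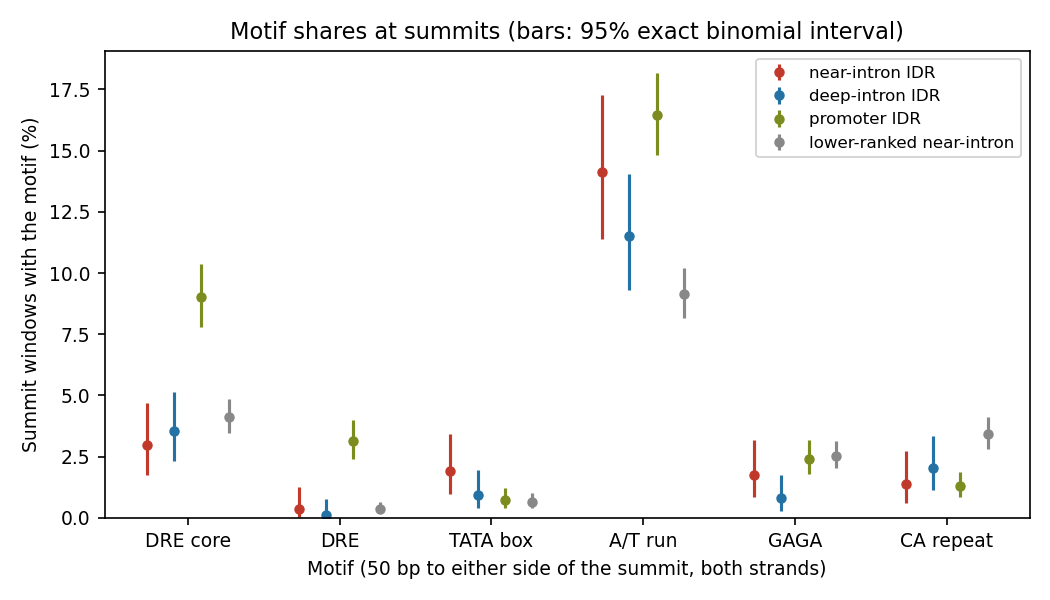
Share of summit windows, 50 bp to either side, (y axis, percent) that hold each of 6 motifs (x axis, both strands), for near-intron, deep-intron and promoter IDR regions and lower-ranked near-intron regions; bars are 95% exact binomial intervals. The DRE core is at 2.97% in near-intron and 9.02% in promoter windows, and the A/T run at 14.1% and 16.5%.

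A scan of all 8192 words of 7 bp, each counted with its reverse complement, gave a similar picture. It likewise did not adjust for base composition. Against flanks, 6 words (0.0732%) were more frequent and 0 less frequent (exact McNemar test, 477 with an unadjusted p under 0.05 in either direction). ATTTTAA led with 79 summits against 27 flanks (13.8% against 4.71%, exact adjusted p = 5.45e-04), and 4 of the 6 held at most 1 G or C. The exceptions were CACTGTA in 25 against 2 (exact adjusted p = 0.0116) and ACACTAT in 18 against 0 (adjusted p = 0.0125). CACTGTA was in 2.99% of deep-intron and 1.79% of promoter summits, against 4.36% here. From replicate 1 alone 0 words passed against flanks, and from replicate 3 alone 37. Against the flank on the opposite side 1 word passed, and exact adjusted p was 0.205 for ATTTTAA and 0.266 for CACTGTA.

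Against lower-ranked near-intron summits, 16 words (0.195%) were more frequent and 1 (0.0122%) less frequent by Fisher's exact test. Of the 16, 15 held at most 1 G or C, with ATTTTAA first (13.8% against 6.21%, exact adjusted p = 4.29e-05). The exception was ACGTACA, in 16 windows (2.79%) against 12 (0.380%; exact adjusted p = 0.00109). Its contrast was smaller from replicate 1 alone (1.86% against 0.974%) and from replicate 3 alone (1.21% against 0.798%). Over lower-ranked summits of all classes its share was 0.767%. The less frequent word, CCACCCA, was in 0 of the 573, which by the same limit allows a share of up to 0.524%, and in 61 of the 3155 (1.93%, exact adjusted p = 0.0325). Against deep-intron summits 0 words passed by Fisher's exact test, with 276 at an unadjusted p under 0.05.

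Against promoters 4 words (0.0488%) were less frequent and 1 (0.0122%) more frequent. Of the 4, the word CTATCGA given above, the word ATCGATA (5 windows against 103) and the word ACTATCG (2 against 66) overlap the DRE. The fourth, AGTGTTG, was in 2 against 66 (Fisher's exact test, adjusted p = 0.0103). At lower-ranked summits it was in 1.39% of near-intron and 3.02% of promoter windows, given without a test. The more frequent word was GCAAACA, in 44 near-intron windows (7.68%, 5.63 to 10.2) against 52 promoter windows (2.67%; Fisher's exact test, adjusted p = 8.91e-04). In 30 of the 44 it lay within 25 bp of the summit. The windows reach only 50 bp to either side, so a word placed anywhere in them would often lie that near. Whether it was centred on the summit was not tested. The word was in 9.36% of deep-intron summits, 4.85% of lower-ranked near-intron summits, 4.03% of lower-ranked promoter summits and 2.27% and 3.84% of the near-intron flanks. From replicate 1 alone it was in 9.09% against 3.32% (exact adjusted p = 0.00114), and from replicate 3 alone in 3.99% against 2.33% (adjusted p = 1.00). Its strongest carriers were the regions of cno, CG5953 (401), SREBP (361) and CHES-1-like (354). At cno the signal was 454 in replicate 1 and 221 in replicate 3, and at SREBP 247 and 112, while CHES-1-like had 163 and 194.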

How the data were processed

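The authors deposited region lists in narrowPeak format for each replicate, for the pooled replicates and after IDR thresholding, on dm6 and dm3. Regions were called against control alignments, per the deposited notes. Which caller, aligner and IDR cutoff were used is not given in the sources used here. Each deposited list gives a signal value, whose scale is not stated, and a −log10 q-value, which was not used here, and the summit's offset, from which positions were computed. The dm3 lists were not used. No sequencing depth is given, so intervals cover the counting of regions only.

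Summits were placed on the Ensembl 115 annotation (BDGP6.54, all genes, transposable elements left out), and sequence was read from the RefSeq Release 6 genome, with Python 3.11.15, NumPy 2.4.6, SciPy 1.17.1 and pandas 2.3.3. The IDR regions were taken with their ranks in the pooled list. An overlap is at least 1 bp, and where several replicate regions overlapped a member, 1 was used. Shares were compared by 2-sided Fisher's exact tests with Clopper-Pearson 95% intervals, and summits with flanks 500 bp away by exact McNemar tests, with Benjamini-Hochberg adjustment and a threshold of 0.05. The tests were tested on simulated data. Genes are named for the 25 strongest regions, for hosts of 3 or more, for up to 3 genes per functional list and at the distance limits. Of the names in the 13 lists, 3 were not found in the annotation. Members, lists and motifs were chosen with earlier results of these data known, and the 7 bp scan was added after the motif results were seen.

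Alternatives were narrower distance limits, the region midpoint, coding starts only, 1 region per block of overlapping regions, the stronger part of the list, each replicate alone, the flank on the opposite side, windows of 25 and 100 bp to either side, a reciprocal overlap of 50% and, added after seeing the data, the lower-ranked regions that overlap an IDR region kept.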

Additional observations from a re-analysis of the deposited data

How the results depend on the processing

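Of 162 values of the main results under all settings, 118 kept direction and call or, for counts, stayed within 1.5 times. The GC dip counted as kept if it moved by less than the SD of its values from each replicate alone, a wide limit. A kept count does not say that the same motifs or words passed. With the opposite flank 4 motifs passed, but none of the 3 of the reported setting. In 4 cases an odds ratio crossed 1 without passing the threshold on either side: the share in the tops of both replicates against deep-intron regions in the stronger part of the list (0.897) and against promoters at 501 to 1500 bp (0.922), and the downstream share beyond 1000 bp (1.17) and from replicate 3 alone (1.04). The odds ratio of being in the IDR list, the first-intron share and the soft-masked share kept direction and call under every alternative. The GC dip was not tested and so has no call. It kept its direction, while its size differed between the replicates as given above. For signal against deep-intron regions the odds ratio was 1.30 beyond 1000 bp (exact adjusted p = 0.0938). The share in the tops of both replicates passed against deep-intron regions beyond 1000 bp (odds ratio 1.46, exact adjusted p = 0.0145) and with a 50% reciprocal overlap (1.35, adjusted p = 0.0122). Leaving out 1 replicate gave odds ratios of 1.31 to 1.63 for signal against deep-intron regions, 0.686 to 0.940 for signal against promoter regions, 1.20 to 2.03 for an occupied nearest start and 1.17 to 1.50 for the share within 1000 bp. In each of these 4, the value nearer to 1 came from replicate 1 alone. The downstream share passed under none of the alternatives run, with odds ratios of 0.830 to 1.17 over all of them and 0.924 to 1.04 without 1 replicate.

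Motifs passing against flanks, 3 in the reported setting, numbered 1 at 501 to 1500 bp, 0 beyond 1000 bp, 6 with the midpoint, 1 in the stronger part of the list, 0 in shorter windows (25 bp to either side) and 7 in longer ones (100 bp), and 0 to 8 without 1 replicate. Against lower-ranked summits (1) they numbered 2, 0 and 2 for the first 3 of these, 0 with 1 region per block, 0 in shorter and 3 in longer windows, and 3 with the overlapping lower-ranked regions kept. Against promoters (3) they numbered 4 to 5 without 1 replicate. Words of 7 bp passing against flanks (6) numbered 0 in the stronger part of the list, 1 with the opposite flank, 0 in shorter and 35 in longer windows, and 0 to 37 without 1 replicate. Against lower-ranked summits (17) they numbered 4 in the stronger part, 1 in shorter and 51 in longer windows, and 7 to 53 without 1 replicate. Against deep-intron summits (0) 1 passed in longer windows. Against promoters (5) they numbered 0 in the stronger part, 1 in shorter and 14 in longer windows, and 1 to 3 without 1 replicate. Fewer regions or bases enter the shorter windows, limits and lists; the cause was not tested otherwise.

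No paired analysis was possible because there is 1 group with 2 replicates and no second group to pair it with. With 2 replicates, 1 line, no embryos without the fusion protein and unknown depth, these values describe where the lists place regions, not occupancy per cell.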
